A study of Mus musculus with 9 samples.

Results

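The genes of the unfolded protein response and of the integrated stress response were followed in mouse pancreatic tumors labelled Scrib WT or Scrib null. Scrib is a polarity gene. The set comprised 35 genes, listed by name from textbook knowledge of the pathway, with earlier results of these data known. No measured value is part of the rule. They are 35 of the 54453 genes in the deposited table, and all 35 were among the 16169 genes with enough counts to be tested. They were ordered by role into 3 sensors of stress in the endoplasmic reticulum (ER), 5 stress transcription factors, 11 ER chaperones and cochaperones, 3 protein disulfide isomerases, 4 genes of ER-associated degradation (ERAD), 6 targets of the transcription factor ATF4 in amino acid and 1-carbon metabolism, and 3 further ATF4 targets in feedback and cell death.

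RNA was sequenced from 9 whole primary tumors of the KPC strain, 4 labelled Scrib WT (KPF/+C, tumors 2, 3, 6 and 9) and 5 labelled Scrib null (KPF/+CSF/F, tumors 7, 14, 15, 18 and 23). KPC is the field's name for a mouse model of pancreatic cancer that relies on a Cre recombinase, and both groups are of this model. The sources used here do not spell out the genotype letters, the promoter that drives the recombinase or the age of the animals, nor do the labels say that each tumor came from a separate mouse. P-values therefore measure only the spread between these tumors. Scrib mRNA itself did not separate the groups. It had 88.5, 44.1, 62.0 and 87.4 CPM (counts scaled to the size of the library) in tumors WT 2, 3, 6 and 9 and 102.2, 53.8, 55.4, 53.2 and 36.9 CPM in tumors null 7, 14, 15, 18 and 23. On the log2 scale null over WT came to -0.23 (SE 0.31, edgeR adjusted p = 0.712), so every direction below is between tumors as labelled. Null 7 had the highest Scrib level of the 9 tumors, though it was labelled null. This check is weak, because a gene total does not show missing exons and a whole tumor can hold cells without the recombinase. Why Scrib mRNA did not separate the groups was not tested. Total estimated counts were 10145830 to 27596832 per tumor, and a single tumor held between 30 and 39232 counts of a given stress gene. The epithelial markers were present in every tumor, with a summed level of 7402 to 13819 CPM.

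Cells meet unfolded protein in the ER through the sensors IRE1 (Ern1), PERK (Eif2ak3) and ATF6. IRE1 splices the mRNA of Xbp1, ATF6 is cut to release a transcription factor, and both arms raise chaperones and ERAD genes, while PERK phosphorylates eIF2, slows translation and favours the making of ATF4. Other eIF2 kinases, such as GCN2, feed the same ATF4 arm when amino acids are short, so ATF4 targets can move apart from ER chaperones. The exocrine pancreas, which exports large amounts of digestive enzyme, is known for a heavy demand on ER folding.

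The promoters of the genes were searched for sequence elements of these arms. Stretches are shown for some of the genes with a match, so that the levels can be read beside them. RefSeq promoter windows on GRCm38.p6, from 250 bases before to 50 after each annotated start, were found for 32 of the 35 genes, with none for Atf6, Hyou1 and Manf. Windows were searched on both strands for the ER stress element ERSE (CCAAT and CCACG separated by 9 bases, bound by NF-Y and ATF6), for ERSE-II (ATTGG and CCACG separated by 1 base), for the XBP1 element UPRE (TGACGTGG) and for the ATF4 element CARE (TGATGNAA). Capitals mark the fixed letters of a match, and a match on the other strand reads as its reverse complement. Each stretch is given 5′ to 3′ on the strand of its gene and ends before the RefSeq start.

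Hspa5, chr2:34772005-34772063, plus strand, ERSE: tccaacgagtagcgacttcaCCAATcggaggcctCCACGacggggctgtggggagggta
Hsp90b1, chr10:86705618-86705676, minus strand, ERSE: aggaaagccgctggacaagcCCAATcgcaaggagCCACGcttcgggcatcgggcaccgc
Hsp90b1, chr10:86705513-86705571, minus strand, ERSE: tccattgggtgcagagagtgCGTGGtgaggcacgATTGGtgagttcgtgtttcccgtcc
Calr, chr8:84847055-84847113, minus strand, ERSE: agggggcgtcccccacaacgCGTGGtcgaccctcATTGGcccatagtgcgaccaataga
Creld2, chr15:88819500-88819558, plus strand, ERSE: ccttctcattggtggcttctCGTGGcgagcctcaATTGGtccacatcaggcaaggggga
Pdia6, chr12:17266471-17266529, plus strand, ERSE: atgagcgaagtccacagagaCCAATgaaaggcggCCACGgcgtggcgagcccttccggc
Herpud1, chr8:94386297-94386344, plus strand, CARE: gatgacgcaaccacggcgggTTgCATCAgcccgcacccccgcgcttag
Herpud1, chr8:94386357-94386407, plus strand, ERSE-II: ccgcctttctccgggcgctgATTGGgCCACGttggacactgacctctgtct
Asns, chr6:7693210-7693252, minus strand, CARE: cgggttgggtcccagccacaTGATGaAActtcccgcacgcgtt
Slc7a11, chr3:50443633-50443699, minus strand, CARE and CARE: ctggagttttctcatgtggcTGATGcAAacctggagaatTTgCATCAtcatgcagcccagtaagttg
Chac1, chr2:119351029-119351076, plus strand, CARE: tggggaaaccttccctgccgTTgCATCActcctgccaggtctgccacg

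ERSE was present in the windows of 8 genes (Hspa5, Hsp90b1, Calr, Canx, Dnajc3, Creld2, Pdia6 and Syvn1), against 0.137% of all 27025 genes with a window. ERSE-II was present in 2 (Dnajb11 and Herpud1), against 0.0444% of all genes with a window. By role, 1 of these elements was found in 7 of 9 chaperones, 1 of 3 isomerases, 2 of 4 ERAD genes and 0 of 9 ATF4 targets. CARE was found in 6 genes (Atf3, Herpud1, Asns, Slc7a11, Trib3 and Chac1), 4 of them among the 9 ATF4 targets, against 4.51% of all genes with a window. UPRE was found in 0 of 32, against 0.714% of all genes with a window. None of these elements was found in 17 of the 32 genes, among them Mthfd2, Shmt2 and Psat1. These counts describe letters within the windows and do not show that a factor binds there. Genes and elements were both chosen from what is known of this pathway. Matches among them were to be foreseen and are not a finding of these data.

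Between genotypes, the ATF4 targets had the highest median point estimates of the pathway over the 9 tumors. This order did not hold without null 7 or with the level of non-epithelial markers as a covariate. No gene of the set passed the adjusted threshold. The edgeR quasi-likelihood test at a Benjamini-Hochberg adjusted p under 0.05 called 0 of 35 genes higher and 0 lower in the Scrib null tumors, against 0% and 0.0124% of all genes. The lowest adjusted p in the set was 0.221 (Mthfd2 and Shmt2). DESeq2 also called 0 in either direction, against 1.48% of all genes higher and 2.44% lower, and its lowest adjusted p was 0.0633 for Shmt2. An unadjusted p under 0.05 was reached by 5 genes with higher values in the null tumors (Mthfd2, Shmt2, Hyou1, Chac1 and Asns), which is 14.3% of the set against 7.64% of all genes. It was reached by 0 with lower values, against 10.0% of all genes. With DESeq2 the same unadjusted threshold was reached by 7 genes, all higher, against 9.75% of all genes. The edgeR count was 8 higher without WT 3 (5.90% of all genes), and 6 higher and 2 lower without null 14 (6.33% and 8.22% of all genes). The 5 null tumors lay above all 4 WT tumors for 4 genes (Hyou1, Asns, Shmt2 and Mthfd2), against 3.42% of all genes, and below all of them for 0, against 3.49%.

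Point estimates were positive for 25 of the 35 genes (71.4%, against 47.8% of all genes tested) and negative for 10. That of Edem1 (0.0017) turned negative with RLE size factors. The median log2 fold change, null over WT, was 0.34 in the set and -0.035 over all genes tested. By role the median was 0.89 for the ATF4 targets of feedback and death, 0.79 for those of amino acid and 1-carbon metabolism, 0.49 for the sensors, 0.36 for the disulfide isomerases, 0.077 for ERAD, 0.062 for the chaperones and -0.064 for the transcription factors. Without null 7 the medians of the ATF4 targets were 0.41 and 0.38, below the 0.51 of the isomerases and the 0.45 of the sensors. With the level of non-epithelial markers as a covariate they were -0.23 and -0.28, below those of every other role. In that fit the median was 0.77 for the isomerases, 0.59 for the sensors, 0.42 for ERAD, 0.32 for the chaperones and 0.040 for the transcription factors. Without null 14 the median of the isomerases was 0.14, that of ERAD -0.019 and that of the chaperones -0.16. The median over the set also depended on null 14, being 0.14 without null 14 and 0.035 without both null 14 and null 7. The standard errors of single genes ran from 0.21 to 0.54 on the log2 scale, so most intervals spanned 0.

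**Figure D1:**
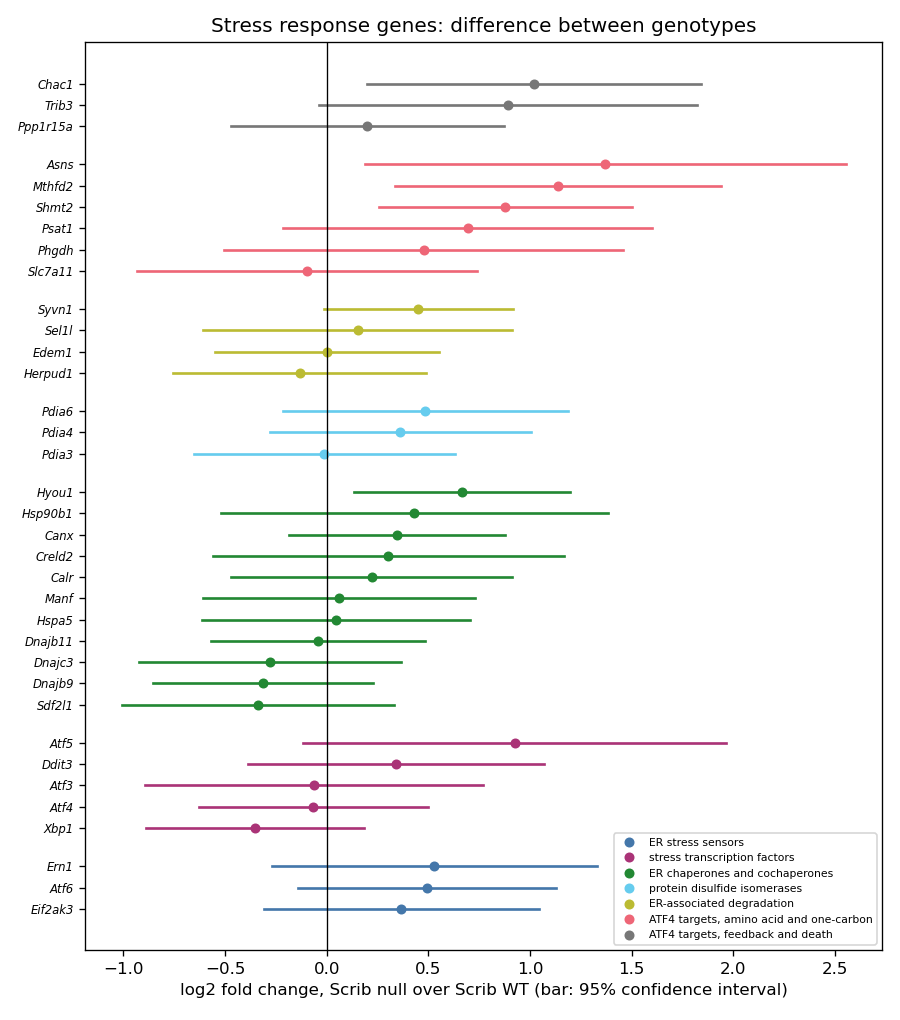
Log2 fold change (x axis, Scrib null over Scrib WT, points) of the 35 stress genes with its 95% confidence interval (bars), one gene per line and coloured by role, from 4 WT and 5 null tumors. The intervals of Chac1, Asns, Mthfd2, Shmt2 and Hyou1 lie above 0, and no gene passed the adjusted threshold.

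Asns and Mthfd2, of asparagine synthesis and 1-carbon metabolism, had the highest point estimates of the 35 genes. Asns (chromosome 6, 7675169 to 7693254), which makes asparagine from aspartate and is a standard readout of ATF4, had 31.8, 35.5, 32.9 and 30.3 CPM in tumors WT 2, 3, 6 and 9 and 233.6, 36.1, 41.5, 49.7 and 61.3 CPM in tumors null 7, 14, 15, 18 and 23. The WT tumors lay close together, the null tumors did not overlap them, and null 7 stood far above all others. The log2 fold change was 1.37 (SE 0.54, edgeR adjusted p = 0.245), a fold of 2.59 with a 95% interval of 1.14 to 5.87. Without null 7 it was 0.54 (unadjusted p = 0.029). Mthfd2 (chromosome 6, 83305691 to 83325908), a mitochondrial enzyme of the folate cycle, had 19.5, 17.5, 20.01 and 23.5 CPM in the WT tumors and 88.7, 24.8, 27.9, 38.1 and 42.0 CPM in the null tumors, in the same order. Again the groups did not overlap and null 7 was the highest. Its log2 fold change was 1.14 (SE 0.36, edgeR adjusted p = 0.221), and 0.74 without null 7. Shmt2 (chromosome 10, 127517123 to 127522444), which takes the carbon unit from serine in mitochondria, had 62.1, 34.9, 51.3 and 51.0 CPM in the WT tumors and 153.7, 70.1, 74.2, 77.5 and 82.7 CPM in the null tumors. The lowest null tumor was above the highest WT tumor here too. The log2 fold change of Shmt2 was 0.88 (SE 0.28, edgeR adjusted p = 0.221), and 0.63 without null 7. Ndufa4l2 overlaps Shmt2 on the other strand, and the sources used here do not say whether the libraries kept strand.

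The 3 other genes of this role overlapped between the groups. Psat1, an aminotransferase of serine synthesis, had 32.7, 32.7, 67.8 and 32.0 CPM in the WT tumors and 142.6, 45.5, 44.9, 55.7 and 45.7 CPM in the null tumors. Tumor WT 6 held more Psat1 than 4 of the 5 null tumors, and the log2 fold change of 0.69 (SE 0.41, edgeR adjusted p = 0.378) was 0.23 without null 7. Phgdh, the first enzyme of serine synthesis, ranged from 42.9 to 212.2 CPM in WT tumors and from 102.9 to 312.2 CPM in null tumors, with a log2 fold change of 0.48 (SE 0.44, edgeR adjusted p = 0.571). Slc7a11, the cystine importer with the pair of CARE matches printed above, had 13.3, 14.6, 14.2 and 27.7 CPM in WT tumors and 23.4, 19.0, 6.16, 15.9 and 17.2 CPM in null tumors. Its point estimate of -0.097 (SE 0.38, edgeR adjusted p = 0.911) was the only negative one among the 9 ATF4 targets.

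Among the targets that feed back on the response or act in cell death, Chac1 (chromosome 2, 119351229 to 119354381), which degrades glutathione, was the least abundant gene of the set by CPM. It had 2.87, 2.75, 2.73 and 4.38 CPM in the WT tumors and 7.47, 3.63, 4.86, 9.27 and 7.13 CPM in the null tumors. Tumor null 14 was below WT 9, and the other 4 null tumors were above every WT tumor. The log2 fold change was 1.02 (SE 0.37, edgeR adjusted p = 0.233) and stayed at 0.98 without null 7. Trib3, a pseudokinase that restrains ATF4 and CHOP, had 17.4, 12.2, 11.9 and 15.0 CPM in the WT tumors and 57.0, 15.1, 14.1, 17.6 and 27.2 CPM in the null tumors. Here 2 null tumors lay within the WT range, and the log2 fold change of 0.89 (SE 0.42, edgeR adjusted p = 0.297) was 0.41 without null 7. Ppp1r15a (GADD34), the phosphatase subunit that reverses eIF2 phosphorylation, ranged from 26.9 to 62.5 CPM in WT and from 26.6 to 55.6 CPM in null tumors, with a log2 fold change of 0.20 (SE 0.30, edgeR adjusted p = 0.739).

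**Figure D2:**
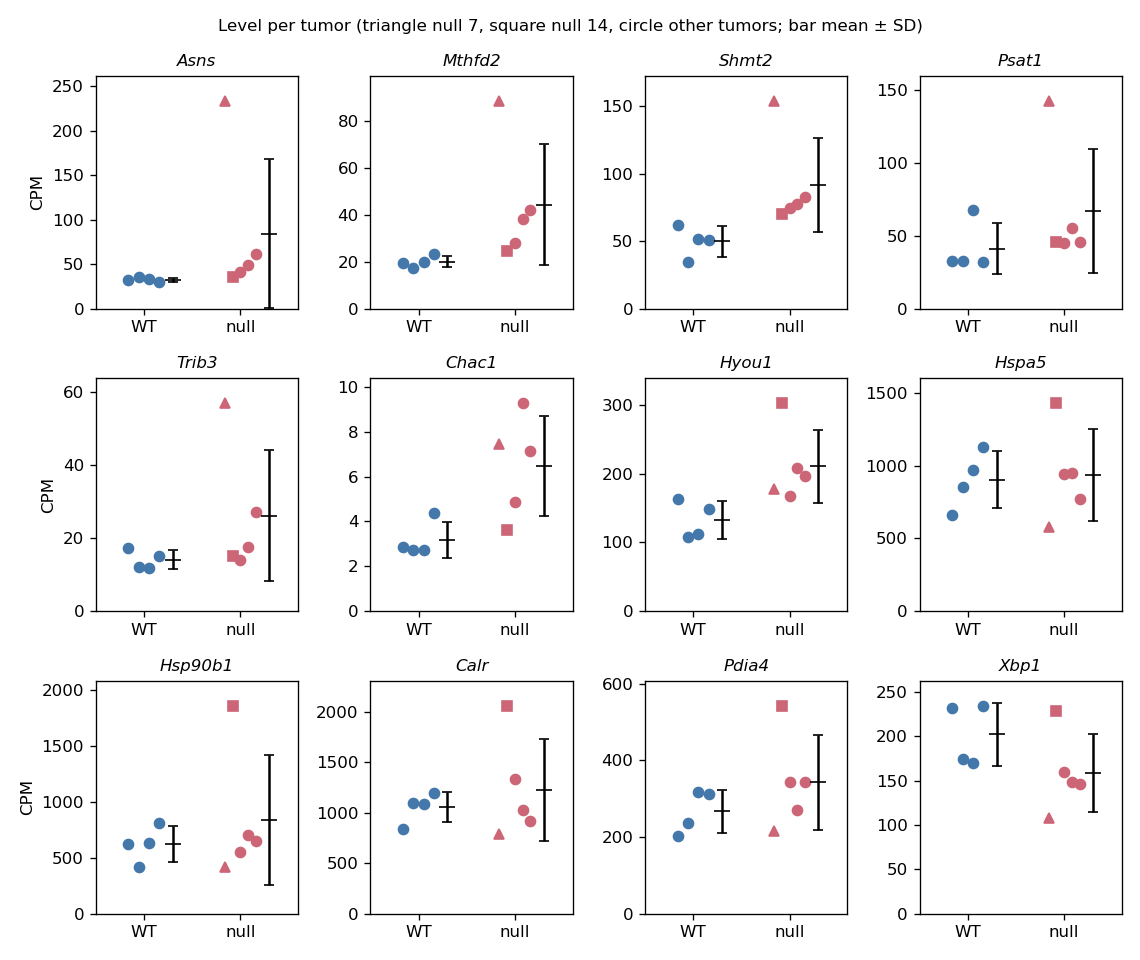
CPM per tumor (y axis, from 0, a separate scale in each panel) of 12 stress genes in 4 Scrib WT and 5 Scrib null tumors, with the mean and SD of each group. Null 7 (triangle) is the highest tumor for Asns, Mthfd2, Shmt2, Psat1 and Trib3, and null 14 (square) for Hyou1, Hspa5, Hsp90b1, Calr and Pdia4.

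The sensors had positive point estimates in all 3 cases, and the groups overlapped for each. Ern1 had 52.2, 14.9, 21.9 and 50.7 CPM in tumors WT 2, 3, 6 and 9 and 40.7, 44.2, 45.6, 59.4 and 62.4 CPM in tumors null 7, 14, 15, 18 and 23, a log2 fold change of 0.53 (SE 0.36, edgeR adjusted p = 0.442). Eif2ak3 had 75.8, 28.8, 33.0 and 46.5 CPM in the WT tumors and 49.6, 45.4, 51.1, 78.0 and 72.5 CPM in the null tumors, a log2 fold change of 0.37 (SE 0.31, edgeR adjusted p = 0.529). Atf6 had 62.1, 29.2, 35.8 and 58.6 CPM in the WT tumors and 80.6, 85.0, 43.5, 61.0 and 57.0 CPM in the null tumors, a log2 fold change of 0.49 (SE 0.29, edgeR adjusted p = 0.372). Tumor WT 3 was the lowest of all 9 tumors for each sensor and WT 6 the next lowest for each.

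The transcription factors did not share a direction. Atf4 mRNA, whose output is set largely at translation, had 188.0, 371.9, 297.6 and 217.8 CPM in the WT tumors and 320.3, 299.9, 220.5, 231.6 and 212.0 CPM in the null tumors, a log2 fold change of -0.066 (SE 0.25, edgeR adjusted p = 0.910). Tumor null 7, which held by far the most Asns, was second to WT 3 for Atf4 mRNA. Xbp1, the substrate of IRE1, had 231.7, 174.1, 169.4 and 234.4 CPM in the WT tumors and 107.8, 228.8, 159.8, 148.9 and 146.6 CPM in the null tumors. All null tumors other than null 14 were below every WT tumor, with a log2 fold change of -0.35 (SE 0.24, edgeR adjusted p = 0.442). A gene total does not separate the spliced from the unspliced Xbp1 mRNA. Ddit3 (CHOP), a factor of the cell death arm, had 13.2, 26.7, 11.9 and 13.5 CPM in the WT tumors and 17.1, 32.6, 15.4, 22.0 and 16.3 CPM in the null tumors, with a log2 fold change of 0.34 (SE 0.33, edgeR adjusted p = 0.584). Every null tumor was above 3 of the 4 WT tumors, and WT 3 was above all null tumors but null 14. Mars overlaps Ddit3 on the other strand. Atf5 had 44.2 to 98.7 CPM in WT and 49.5 to 236.2 CPM in null tumors, led by null 7 (236.2 CPM) and null 14 (176.7 CPM), with a log2 fold change of 0.92 (SE 0.47, edgeR adjusted p = 0.321). Atf3, an immediate stress factor, had its highest level in WT 3 (54.3 CPM) and its lowest in WT 6 (14.4 CPM), with a log2 fold change of -0.064 (SE 0.38, edgeR adjusted p = 0.941).

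The ER chaperones showed a single difference without overlap. Hyou1 (chromosome 9, 44379490 to 44392369), a large HSP70-like chaperone and exchange factor for BiP, had 163.5, 107.6, 111.4 and 148.3 CPM in tumors WT 2, 3, 6 and 9 and 177.8, 302.0, 167.8, 207.7 and 196.2 CPM in tumors null 7, 14, 15, 18 and 23. Every null tumor was above every WT tumor, by a narrow margin at the edge (167.8 against 163.5 CPM). The log2 fold change was 0.66 (SE 0.24, edgeR adjusted p = 0.233), a fold of 1.58 with a 95% interval of 1.10 to 2.29.

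Hspa5 (chromosome 2, 34771970 to 34777547), which encodes BiP, the central ER chaperone, did not follow Hyou1. It had 661, 852, 971 and 1129 CPM in the WT tumors and 577, 1427, 941, 949 and 769 CPM in the null tumors. Both the lowest and the highest tumor were null, and the log2 fold change was 0.046 (SE 0.30, edgeR adjusted p = 0.946). The 95% interval of the fold ran from 0.65 to 1.63. Hsp90b1 (GRP94), the ER HSP90, had 618, 417, 631 and 812 CPM in the WT tumors and 418, 1858, 548, 698 and 653 CPM in the null tumors. Tumor null 14 stood far above every other tumor for Hsp90b1, and the log2 fold change of 0.43 (SE 0.43, edgeR adjusted p = 0.599) was -0.096 without it. Calr, a lectin chaperone of glycoproteins, had 842, 1094, 1087 and 1192 CPM in the WT tumors and 791, 2063, 1332, 1032 and 919 CPM in the null tumors. Its log2 fold change of 0.22 (SE 0.31, edgeR adjusted p = 0.718) was -0.048 without null 14.

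Of the 7 other chaperones and cochaperones, Canx, Creld2 and Manf had positive point estimates (0.34, 0.30 and 0.062) and Dnajb11, Dnajc3, Dnajb9 and Sdf2l1 negative ones (-0.043, -0.28, -0.31 and -0.34), with edgeR adjusted p-values of 0.452 or more. Dnajc3 (p58IPK), an HSP40 cochaperone of BiP, had 121.6, 71.6, 121.7 and 126.6 CPM in the WT tumors and 46.6, 131.3, 94.6, 94.9 and 87.2 CPM in the null tumors. It was lowest in null 7 and next lowest in WT 3. Manf, a secreted ER stress protein, had 138.9, 146.2, 167.1 and 120.3 CPM in the WT tumors and 122.3, 275.5, 133.1, 100.3 and 115.9 CPM in the null tumors, with null 14 far above the rest.

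The disulfide isomerases, which form and reshuffle disulfide bonds, had log2 fold changes of -0.011 for Pdia3, 0.36 for Pdia4 and 0.48 for Pdia6 (SE 0.29, 0.29 and 0.32, with edgeR adjusted p-values of 0.987, 0.515 and 0.425). Null 14 held the highest level of all 3, at 1403, 543 and 807 CPM. Of the ERAD genes, Syvn1, the ubiquitin ligase HRD1, had 40.4 to 70.9 CPM in WT and 61.6 to 92.6 CPM in null tumors, with a log2 fold change of 0.45 (SE 0.21, edgeR adjusted p = 0.294). Its partner Sel1l, the mannosidase-like Edem1 and the membrane protein Herpud1 had log2 fold changes of 0.15, 0.0017 and -0.13, with edgeR adjusted p-values of 0.818 or more. Mrpl49 overlaps Syvn1 on the other strand.

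To compare genes with each other, levels were set per kilobase of all annotated exons of a gene. That length can exceed the transcript present, so the order between genes is rough. By this measure Calr was the most abundant gene of the set, with a median of 377 CPM per kb over the 9 tumors. Pdia3 followed at 260 and Hspa5 at 222 CPM per kb. The lowest level was that of Slc7a11, at 1.14 CPM per kb, and the median gene was at 22.5 CPM per kb. On this scale the ATF4 targets Asns, Mthfd2 and Chac1 stood at 13.2, 7.12 and 2.68 CPM per kb, well below the main chaperones.

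The highest levels of the chaperones, and those of the ATF4 targets of amino acid and 1-carbon metabolism, lay mostly in 1 tumor each. Null 14 held the highest level of the 9 tumors for 17 of the 35 genes, among them 9 of 11 chaperones, 3 of 3 isomerases and 3 of 4 ERAD genes, and the lowest for 0. Against the median of the other 4 null tumors, null 14 had 3.09 times the Hsp90b1, 2.54 times the Creld2, 2.31 times the Manf, 2.11 times the Calr and 1.98 times the Pdia6, but 0.50 times the Chac1. Null 7 showed the opposite arrangement. It was the highest tumor for 7 genes, among them 5 of 6 ATF4 targets of amino acid and 1-carbon metabolism, and the lowest for 8, among them 5 of 11 chaperones. Against the median of the other null tumors it had 5.13 times the Asns, 3.48 times the Trib3, 3.13 times the Psat1, 2.69 times the Mthfd2 and 2.03 times the Shmt2, with 1.42 times the Atf4 and 0.49 times the Dnajc3. The mean log2 CPM of the chaperones was 8.13 in null 14, 6.90 in null 7 and 7.17 to 7.57 in the other 7 tumors. That of the ATF4 targets of amino acid and 1-carbon metabolism was 6.93 in null 7, 5.40 in null 14 and 4.91 to 5.75 in the others. Tumor WT 3 was the lowest of the 9 for 11 genes, including all 3 sensors, and the highest for 4. These tumors were singled out after their values were seen.

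**Figure D3:**
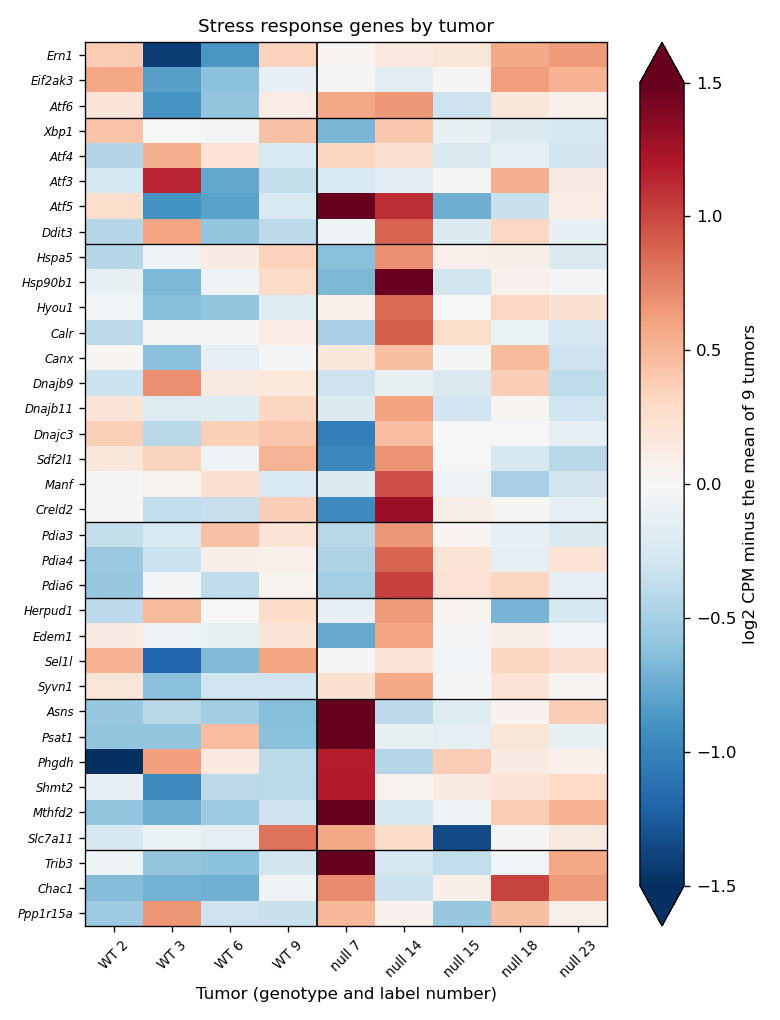
Log2 CPM of each of the 35 genes (lines, grouped by role) minus its mean over the 9 tumors (columns), with colours saturating at 1.5 in either direction and the vertical line dividing 4 WT from 5 null tumors. Null 14 is the highest tumor for 17 genes, mostly in the chaperone, isomerase and ERAD blocks, and null 7 for 7 genes, mostly in the block of amino acid and 1-carbon metabolism.

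The genotype groups also differed in the RNA of cells other than tumor epithelium. The mean log2 CPM of 6 marker lists (B and plasma cells, macrophages, T cells, fibroblasts, endothelium and neutrophils) was 4.72 to 5.27 in the WT tumors and 2.64 to 4.63 in the null tumors, without overlap and with null 7 the lowest. In bulk tissue, fewer cells of a type and less RNA per cell cannot be told apart. Point estimates were negative for 10 of 10 macrophage, 10 of 10 fibroblast, 8 of 8 endothelial, 7 of 7 neutrophil, 6 of 6 T cell and 5 of 6 B and plasma cell markers tested. Of all 16169 genes tested, 8445 had a negative one. Summed macrophage markers were 1034 to 1998 CPM in WT and 699 to 1203 CPM in null tumors, and summed fibroblast markers 2245 to 9550 and 376 to 4595 CPM. Summed endothelial markers were 249 to 489 and 51.0 to 258 CPM, summed neutrophil markers 245 to 2933 and 103 to 643 CPM, and summed T cell markers 5.44 to 12.5 and 2.88 to 8.69 CPM. Summed B and plasma cell markers were 903 to 1235 and 839 to 1654 CPM, nearly all of it Sdc1, which epithelium also expresses. The plasma cell markers Jchain and Mzb1 were at most 37.3 and 2.19 CPM, and Tnfrsf17 was at 0 in 7 of 9 tumors. The epithelial list had 7 of 10 positive point estimates and a mean log2 CPM of 9.18 to 9.62 in WT and 9.15 to 9.84 in null tumors.

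Acinar cells of the normal pancreas are rich in ER chaperones, and their markers were read beside the chaperone levels. Acinar markers were detectable mainly in WT 6, null 15 and null 18, which summed to 571, 332 and 78.1 CPM, and reached 38.6 CPM or less in the other tumors. Null 14, the tumor with the highest mean chaperone level, had the lowest sum, 7.84 CPM, with Cpb1, Cela2a, Cela3b and Ptf1a at 0. Ptf1a was at 0 in 7 of 9 tumors. Of the tested acinar markers, 4 of 10 had positive point estimates, and of the tested endocrine markers 4 of 5, with summed endocrine levels of 0.616 to 42.4 CPM in WT and 1.92 to 65.9 CPM in null tumors.

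The ATF4 targets tended to be higher where the non-epithelial level was lower. The Pearson r with it, on log2 CPM over the 9 tumors, was negative for all 6 genes of amino acid and 1-carbon metabolism (median -0.88) and for all 3 of feedback and death (median -0.67). Over 8 tumors without null 7, r went from -0.91 to -0.72 for Asns, from -0.82 to -0.40 for Trib3, from -0.59 to -0.30 for Phgdh and from -0.25 to 0.067 for Slc7a11, whose sign turned. For Mthfd2, Shmt2, Psat1, Chac1 and Ppp1r15a it was -0.72, -0.67, -0.64, -0.64 and -0.44 without null 7. For the chaperones the median r was 0.20, with 0.74 for Sdf2l1 and 0.70 for Dnajc3, and Xbp1 had 0.78. Without null 7 these 3 genes had 0.38, 0.14 and 0.51. The other chaperones then had a negative r, apart from Dnajb9 (0.099). Hyou1, Canx, Hsp90b1, Calr, Creld2 and Hspa5 had -0.69, -0.54, -0.42, -0.31, -0.30 and -0.28, and Manf and Dnajb11 had -0.12 and -0.013. The positive median of the chaperones thus rested on null 7. The isomerases Pdia3, Pdia4 and Pdia6 went from 0.25, 0.059 and 0.0038 to -0.20, -0.51 and -0.59. All 9 points share library depth and normalisation, and these values are descriptions. With the non-epithelial level as a covariate in the edgeR fit, 1 of the 35 genes had an unadjusted p under 0.05 in place of 5, against 4.62% of all genes higher and 3.89% lower in that fit. This was Hyou1, with a log2 fold change of 0.82. Those of Chac1, Shmt2 and Mthfd2 became 0.82, 0.26 and 0.16, and those of Asns, Psat1, Phgdh, Trib3 and Ppp1r15a turned negative (-0.35, -0.50, -0.22, -0.23 and -0.32). Because the groups did not overlap in that level, genotype and the share of non-epithelial RNA cannot be told apart for these genes. Sex, read from Xist and Y-linked transcripts, was male in WT 3, null 7 and null 18, and with it as a covariate 4 of the 35 genes had an unadjusted p under 0.05, all higher, against 7.25% of all genes higher.

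Covariation across the 9 tumors was then computed for each gene with Hspa5, as index of the chaperone arm, and with Asns, as index of the ATF4 arm, giving 68 pairs with exact two-sided permutation p-values adjusted over all of them. An r of at least 0.8 with Hspa5 was reached by 6 of 34 genes (Calr, Pdia3, Pdia6, Creld2, Pdia4 and Edem1), which is 17.6% against 0.334% of all genes. With Asns it was reached by 4 of 34 (Mthfd2, Trib3, Shmt2 and Psat1), which is 11.8% against 1.71% of all genes.

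Calr followed Hspa5 with r = 0.91 (exact permutation p = 0.000353, adjusted p = 0.00968) and rho = 0.82 (exact permutation p = 0.0108, adjusted p = 0.122). Without the 2 tumors farthest from the median of Hspa5, null 7 and null 14, its r was 0.80. Pdia3 followed Hspa5 with r = 0.90 (exact permutation p = 0.000689, adjusted p = 0.0117) and rho = 0.95 (exact permutation p = 0.000353, adjusted p = 0.0240), and r was 0.77 without those tumors. For Pdia6, Pdia4, Creld2 and Edem1 the r of 0.84, 0.83, 0.84 and 0.81 came to 0.60, 0.57, 0.34 and 0.13 without them, so the last 2 relations rest on null 7 and null 14. Hyou1, the chaperone that differed without overlap, had an r of only 0.30 with Hspa5.

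Mthfd2 followed Asns with r = 0.95 (exact permutation p = 0.000427, adjusted p = 0.00968) and rho = 0.85 (exact permutation p = 0.00607, adjusted p = 0.103), and r was 0.82 without null 7 and null 23, the tumors farthest from the median of Asns. Shmt2 had r = 0.86 (exact permutation p = 0.00190, adjusted p = 0.0215) and rho = 0.88 (exact permutation p = 0.00308, adjusted p = 0.0697), with r = 0.55 without them. For Trib3 and Psat1 the r of 0.94 and 0.86 came to 0.32 and 0.46, so these relations rest on those tumors. In the other direction, Xbp1 went against Asns with r = -0.84 (exact permutation p = 0.000331, adjusted p = 0.00968) and rho = -0.93 (exact permutation p = 0.000750, adjusted p = 0.0255), and r was -0.76 without them. Sdf2l1 and Dnajc3 also had negative r with Asns (-0.86 each), which came to -0.58 and -0.46. Atf4 mRNA had r = 0.27 with Asns (exact permutation p = 0.564, adjusted p = 0.737). Asns and Hspa5 themselves had r = -0.62 (exact permutation p = 0.0870, adjusted p = 0.260), which was 0.053 without null 7 and null 23. Centring each genotype on its mean left 8 genes at or above 0.8 with Hspa5 and 4 with Asns, and the r of Xbp1 with Asns was then -0.77. Asns, Mthfd2, Shmt2 and Xbp1 also varied with the non-epithelial level (r of -0.91, -0.91, -0.87 and 0.78). The part of that level in these pairs was not tested.

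**Figure D4:**
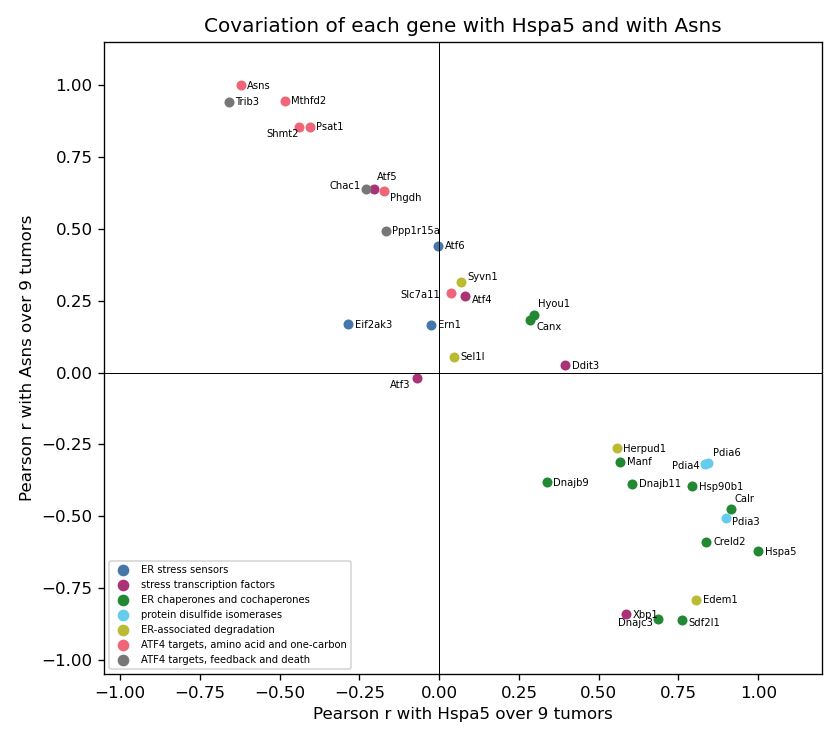
Pearson r of each gene with Hspa5 (x axis) and with Asns (y axis) over 9 tumors on log2 CPM, coloured by role, with each index gene drawn at 1 on its own axis. Isomerases and most chaperones lie at the lower right, led by Calr (0.91 with Hspa5), with Hyou1 and Canx above 0 on the y axis (0.20 and 0.18), and most ATF4 targets at the upper left, led by Mthfd2 (0.95 with Asns).

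Set beside the promoter stretches, the 9 genes other than Hspa5 with an ERSE or ERSE-II match had a median r with Hspa5 of 0.69 (range 0.068 to 0.91, 3 at or above 0.8). The 22 genes with a window and neither match had a median of -0.048 (3 at or above 0.8). The 3 unmatched genes at that level were Pdia3, Pdia4 and Edem1. This split follows role, because every ERSE or ERSE-II match lay in a chaperone, isomerase or ERAD gene. Within those roles, the unmatched genes with a window had r of 0.90 (Pdia3), 0.83 (Pdia4), 0.81 (Edem1), 0.76 (Sdf2l1), 0.34 (Dnajb9) and 0.045 (Sel1l). Element and role therefore cannot be told apart here. The 5 genes other than Asns with a CARE match had a median r with Asns of 0.28, against -0.14 for the 26 without it, and only Trib3 among them reached 0.8. Most of those 26 genes were not ATF4 targets, so this split also mixes roles. Among the ATF4 targets other than Asns, those with CARE had r of 0.94 (Trib3), 0.64 (Chac1) and 0.28 (Slc7a11). Those without it had 0.95 (Mthfd2), 0.86 (Shmt2), 0.86 (Psat1), 0.63 (Phgdh) and 0.49 (Ppp1r15a). Across genotypes the 10 genes with an ERSE form had a median log2 fold change of 0.26, with 7 positive. The 6 with CARE had a median of 0.41, with 3 positive, ranging from -0.13 for Herpud1 to 1.37 for Asns.

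Other genes of the same pathways gave 6 further lists, with 0 genes past the edgeR adjusted threshold in any of them. DESeq2 called 1 synthetase, 1 further ATF4 target, 1 gene of ER folding and export and 2 other sensors and stress factors, and 0 in the eIF2 and ERAD lists. These are 5 of 119 genes (4.20%), near the 3.91% of all genes that DESeq2 called in either direction. The cytosolic aminoacyl-tRNA synthetases, several of which are ATF4 targets, had positive point estimates for 17 of 18 genes (94.4%, against 47.8% of all genes). Their median log2 fold change was 0.51. Of the 18, 7 were higher at an unadjusted p under 0.05 (38.9% against 7.64% of all genes) and 0 lower. Eprs had 66.2 to 125.9 CPM in WT and 145.0 to 267.0 CPM in null tumors (log2 fold change 0.92, SE 0.27, edgeR adjusted p = 0.208). Aars had 80.2 to 155.4 and 170.2 to 239.8 CPM (0.80, SE 0.26, edgeR adjusted p = 0.221). The groups did not overlap for either gene, while those of Cars did (0.84, edgeR adjusted p = 0.222). With the non-epithelial covariate, 0 of the 18 had an unadjusted p under 0.05, against 4.62% of all genes higher and 3.89% lower. Without both null 7 and null 14 it was 4, against 4.05% of all genes higher and 7.03% lower.

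Further ATF4 targets had positive point estimates for 21 of 28 genes (75%, against 47.8% of all genes), with a median of 0.31. At an unadjusted p under 0.05, 3 were higher (10.7% against 7.64% of all genes) and 1 lower (3.57% against 10.0%). The median was 0.17 without null 7, 0.095 without both null 7 and null 14, and -0.13 with the non-epithelial covariate. Aldh18a1, Slc7a5 and Pycr1, of proline synthesis and amino acid uptake, had log2 fold changes of 1.03, 0.81 and 1.13 with edgeR adjusted p-values of 0.208, 0.223 and 0.246, and null 7 was the highest tumor for each (128.8, 127.6 and 48.7 CPM). The eIF2 kinases, eIF2 and eIF2B were split, with 6 of 13 positive, a median of -0.034 and 0 at an unadjusted p under 0.05 in either direction. Eif2s2, Eif2ak1 and Eif2ak4 (GCN2) had log2 fold changes of -0.64, 0.37 and 0.33, with edgeR adjusted p-values of 0.346 or more.

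Of the 30 remaining ER folding and export genes, 12 had positive and 18 negative point estimates, with a median of -0.11. At an unadjusted p under 0.05, 7 were lower (23.3% against 10.0% of all genes) and 0 higher. The count in either direction was 2 without WT 3 or without WT 6, 3 without null 7, without null 18 or with limma-voom, and 1 with the non-epithelial covariate. In those fits 4.62% to 6.95% of all genes were higher and 3.89% to 8.88% lower at that threshold. The median was 0.011 without null 7 and 0.079 with that covariate. Ostc, a subunit of the oligosaccharyltransferase, had 94.0 to 296.4 CPM in WT and 45.1 to 100.3 CPM in null tumors (-1.19, SE 0.36, edgeR adjusted p = 0.208). Fkbp11 and Hspa13 had log2 fold changes of -1.84 and -0.63 (edgeR adjusted p = 0.221 and 0.242), with 128.8 CPM of Fkbp11 in WT 3 alone. Other ERAD genes had 7 of 16 positive estimates and a median of -0.032, with 1 higher (6.25% against 7.64% of all genes) and 3 lower (18.8% against 10.0%) at an unadjusted p under 0.05. The count in either direction was 4, and 2 without WT 3 or without null 23. Of all genes, 5.90% and 6.10% were higher and 6.61% and 9.06% lower in those 2 fits. Erlec1, an ER lectin, was below all WT tumors in every null tumor (45.3 to 86.7 against 32.8 to 44.2 CPM, log2 fold change -0.74, SE 0.23, edgeR adjusted p = 0.215), and Selenos and Ufd1 had -0.73 and -0.45 (edgeR adjusted p = 0.230 and 0.242).

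Other sensors and ER stress factors had 9 of 14 positive estimates and a median of 0.12, with 2 higher (14.3% against 7.64% of all genes) and 1 lower (7.14% against 10.0%) at an unadjusted p under 0.05. Bcl2l11 (BIM), a death protein downstream of CHOP, had 27.5 to 57.8 CPM in WT and 61.7 to 90.1 CPM in null tumors without overlap (0.83, SE 0.24, edgeR adjusted p = 0.208). Wfs1, an ER membrane protein, had 13.5 to 23.9 and 23.5 to 44.6 CPM (0.93, SE 0.26, edgeR adjusted p = 0.201). Ern2, the IRE1 form of mucosal epithelia, had 7.74 to 42.8 and 1.95 to 19.4 CPM (-1.74, SE 0.73, edgeR adjusted p = 0.259), opposite in sign to Ern1.

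**Figure D5:**
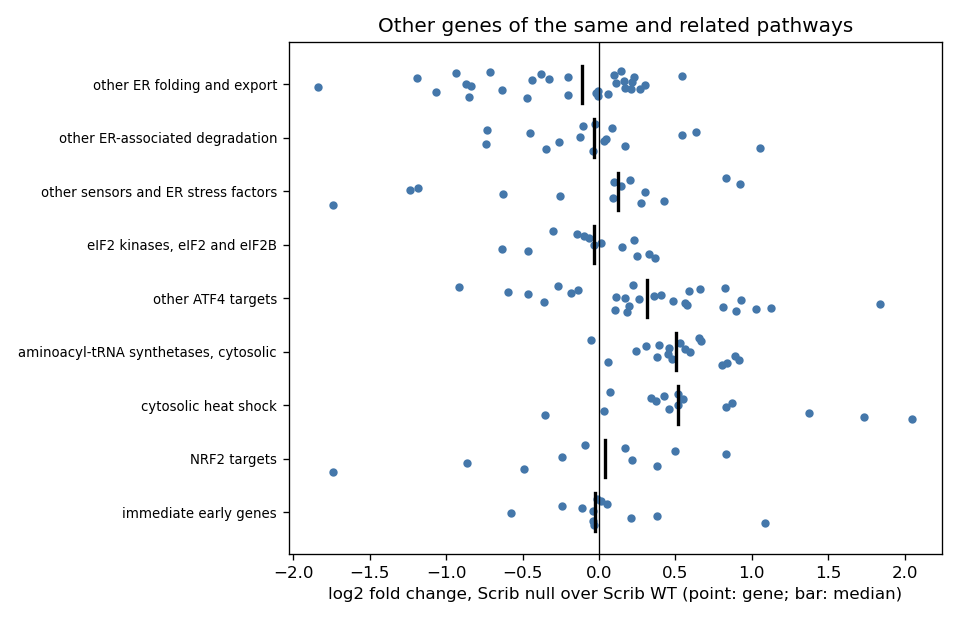
Log2 fold change (x axis, Scrib null over Scrib WT) of every tested gene (points) of 9 lists of related pathways, with the median of each list (bars), from 4 WT and 5 null tumors. The medians of the aminoacyl-tRNA synthetases (0.51) and of cytosolic heat shock (0.52) lie highest and that of other ER folding and export (-0.11) lowest, and no gene shown passed the edgeR adjusted threshold.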

How the data were processed

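The deposited table held estimated counts per Ensembl gene, 1 column per tumor, made by the authors with Salmon 1.4.0 and DESeq 2 named as tools and GRCm38 and mm10 as builds, per the submitters' processing notes. Annotation release and strandedness are not given in the sources used here. Of 35 stress genes, 16 overlap a gene on the other strand. Symbols and coordinates came from GENCODE M21, and promoter windows from RefSeq.

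Estimated counts were rounded and low genes left out with filterByExpr (minimum count 10, minimum total 15). Groups followed the genotype labels. The test was edgeR 4.0.16 quasi-likelihood with TMM and no covariate, in R 4.3.3, adjusted by Benjamini-Hochberg over 16169 genes. Log2 CPM used a prior count of 2, and CPM the TMM-scaled library. Correlations used all 362880 pairings. Alternatives were RLE, other filters, DESeq2 1.42.0, limma-voom 3.58.1, acinar, non-epithelial and sex covariates, and tumors left out.

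Genes and lists were chosen with earlier results of these data known. All 35 genes are accounted for by role, with full values for index genes, sensors, Xbp1, Atf4, Ddit3, genes at an unadjusted p under 0.05 or without overlap and genes with an outlying tumor. Each related list gives its 3 genes of smallest p. Depth was 10145830 to 27596832 estimated counts per tumor. The spread between tumors (common biological coefficient of variation 0.494) limited precision more than counting did.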

Additional observations from a re-analysis of the deposited data

Results flagged for a closer look

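In 9 of 70 gene and group combinations, 1 tumor stood apart from the rest of its group by Dixon's criterion on log2 CPM. Chance alone gives about 1 in 20 such groups, and genes of 1 pathway are not independent. Null 7 stood apart for 3 genes, with 233.6 CPM of Asns against 36.1 to 61.3 in the other null tumors, 142.6 CPM of Psat1 against 44.9 to 55.7, and 153.7 CPM of Shmt2 against 70.1 to 82.7. Null 14 stood apart for Manf, with 275.5 CPM against 100.3 to 133.1. WT 3 was high for Ddit3, with 26.7 CPM against 11.9 to 13.5 in the other WT tumors, and low for Dnajc3, with 71.6 CPM against 121.6 to 126.6. WT 6 was high for Psat1, with 67.8 CPM against 32.0 to 32.7. WT 9 was high for Slc7a11, with 27.7 CPM against 13.3 to 14.6, and for Chac1, with 4.38 CPM against 2.73 to 2.87.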

How the results depend on the processing

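Across 19 alternatives, 0 of the 35 stress genes passed the adjusted threshold under any of them. Over all genes, the 2 calls became 7 with no filter on low counts, 633 with DESeq2, 6 with limma-voom, 1 with the acinar or the sex covariate, and 0 with the non-epithelial covariate, without both WT 3 and null 7, and without both null 7 and null 14. Leaving out each tumor in turn gave 0 to 1. The 5 stress genes at an unadjusted p under 0.05 became 8 with no filter and 1 with the non-epithelial covariate, and ran from 4 (without WT 6 or WT 9) to 8 (without WT 3 or null 14) with each tumor left out. In those fits 4.62% to 10.7% of all genes were higher and 3.89% to 11.7% lower at that threshold. The median log2 fold change of the set was 0.035 without both null 7 and null 14, and ran from 0.14 (without null 14) to 0.39 with each tumor left out. The 10 pairs at an r of at least 0.8 became 3 without the 2 farthest tumors and 6 without null 7. Leaving out null 7 and null 14, together or alone for the correlations, was chosen after seeing the data.

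Of 665 log2 fold changes of single genes under alternatives, 59 turned sign, over 22 genes, and the cause was not tested. The non-epithelial covariate gave 0.074 for Xbp1, 0.040 for Atf3, -0.097 for Atf5, 0.090 for Dnajb11, 0.32 for Dnajc3, 0.28 for Sdf2l1, 0.21 for Pdia3, -0.35 for Asns, -0.50 for Psat1, -0.22 for Phgdh, -0.23 for Trib3 and -0.32 for Ppp1r15a. Without both WT 3 and null 7 the values were 0.074 for Atf4, 0.63 for Atf3, 0.037 for Pdia3, 0.068 for Herpud1 and -0.020 for Sel1l. Without both null 7 and null 14 they were 0.011 for Atf3, -0.074 for Hspa5, -0.0020 for Hsp90b1, -0.35 for Manf and -0.062 for Edem1. Limma-voom gave 0.46 for Atf3, -0.070 for Manf and -0.0067 for Edem1. The acinar covariate gave 0.033 for Atf3, and the sex covariate 0.043 for Pdia3. Having no filter gave 0.0087 for Dnajb11 and 0.033 for Pdia3. Edem1 was at -0.0053 with RLE size factors, -0.0053 with DESeq2 and -0.015 with the stricter filter.

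With each tumor left out, log2 fold changes ran from -0.20 to 0.17 for Atf4, -0.28 to 0.56 for Atf3, -0.16 to 0.20 for Hspa5, -0.096 to 0.63 for Hsp90b1, -0.048 to 0.36 for Calr, -0.24 to 0.062 for Dnajb11, -0.28 to 0.17 for Manf, -0.14 to 0.52 for Creld2, -0.22 to 0.15 for Pdia3, -0.35 to 0.043 for Herpud1, -0.18 to 0.16 for Edem1, -0.052 to 0.42 for Sel1l and -0.24 to 0.22 for Slc7a11. The lowest values for Hspa5, Hsp90b1, Calr, Dnajb11, Manf, Creld2, Pdia3, Herpud1 and Edem1 came from leaving out null 14. The spread between 9 tumors, rather than sequencing depth, limits what these comparisons can show, and a difference that missed the threshold is not shown to be absent. No paired analysis was possible, because the labels give no pairing of tumors between the genotype groups.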

Other observations

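The cytosolic heat shock genes, which answer unfolded protein outside the ER, had positive point estimates for 14 of 15 genes (93.3%, against 47.8% of all genes). Their median log2 fold change was 0.52. At an unadjusted p under 0.05, 7 were higher (46.7% against 7.64% of all genes) and 0 lower. The edgeR adjusted threshold was passed by 0 and that of DESeq2 by 3 (20% against 3.91% of all genes). With the non-epithelial covariate, 4 had an unadjusted p under 0.05, against 4.62% of all genes higher and 3.89% lower. Without null 14 it was also 4, against 6.33% of all genes higher and 8.22% lower. The median was 0.42 without null 14 and 0.29 without both null 7 and null 14. Hsph1 (HSP110) had 53.3, 42.4, 53.3 and 73.2 CPM in tumors WT 2, 3, 6 and 9 and 105.5, 260.3, 130.0, 145.6 and 77.6 CPM in tumors null 7, 14, 15, 18 and 23, without overlap (log2 fold change 1.37, SE 0.34, edgeR adjusted p = 0.201). Hsp90aa1, the inducible cytosolic HSP90, had 371.7 to 547.1 CPM in WT and 585.8 to 1036 CPM in null tumors, also without overlap (0.83, SE 0.25, edgeR adjusted p = 0.208). Hspa1b had 52.7 to 158.8 and 153.2 to 812.9 CPM (1.73, SE 0.51, edgeR adjusted p = 0.208), but it has a near-identical copy, Hspa1a, with which reads may be shared, so its value is uncertain. Null 14 was the highest tumor for Hsph1 and Hspa1b and null 7 for Hsp90aa1.

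The targets of NRF2, the regulator of oxidative defence with which ATF4 shares Slc7a11, were split 5 to 5, with a median of 0.039. DESeq2 called 1 of these 10 (10% against 3.91% of all genes). Nqo1 was low throughout, with 1.24 to 3.52 CPM in WT and 0.473 to 0.812 CPM in null tumors, without overlap (-1.74, SE 0.43, edgeR adjusted p = 0.197). Gclc, the catalytic subunit of glutathione synthesis, was at -0.86 on the log2 scale (edgeR adjusted p = 0.224) and Osgin1 at 0.83 (edgeR adjusted p = 0.239). Immediate early genes, which respond to handling of tissue as well as to signalling, had 5 of 12 positive estimates and a median of -0.024. Fosb, Egr2 and Dusp1 had log2 fold changes of 1.09, -0.58 and -0.24 (edgeR adjusted p = 0.279, 0.548 and 0.736).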
